A study of Mus musculus with 18 samples.

Results

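The genes described here are 48 genes of mitosis, the spindle and the kinetochore, taken by name from the rows of the deposited tables of immortalized mouse myoblasts and followed over the 6 groups of libraries. They are 48 of the 19153 genes listed, each was found under 1 Ensembl identifier, and all 48 were among the 17672 genes that passed the filter on low values. The rule is a list of names with no threshold on a measured value, and the list was made with earlier results of these data known. The study asked how the loss of LAP2alpha, a nucleoplasmic isoform encoded by *Tmpo*, affects myoblasts before and during myogenic differentiation. Wildtype cells (WT) had received the Cas9 plasmid without a guide, and LAP2alpha knockout cells (KO) the plasmid with a LAP2alpha guide. Both were sorted populations and not single clones, and all, WT included, derived from a p53 knockout mouse. Each genotype was collected while proliferating below confluence in 20% serum (Prol), at confluence in 20% serum (D0), and on day 2, after 48 hours in 5% serum (D2). Each of the 6 groups (WT Prol, KO Prol, WT D0, KO D0, WT D2 and KO D2) had 3 libraries. The labels do not say that these came from separate cultures, so that p-values measure the spread between these libraries, which may be technical.

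Cells enter mitosis when cyclin B-bound Cdk1 becomes active. Its activity is raised by Cdc25 phosphatases and Polo-like kinase 1. Chromosomes are then compacted by condensin and topoisomerase II and attached to spindle microtubules at kinetochores, while the spindle checkpoint holds back the anaphase-promoting complex (APC/C) until the attachments are made. Transcripts of most of these proteins are made late in the cell cycle and are few in cells that have left it. Myoblasts leave the cell cycle when they differentiate, and the muscle program follows.

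Values are CPM, the expected counts of a gene relative to its scaled library total. The libraries held 26437823 to 41619016 expected counts, and the lowest value of any of the 48 genes in any library was 1.98 CPM. The myoblast label was checked against its markers. Of 5 myoblast markers 4 were listed (not *Pax7*), with a summed level of 28.4 to 35.3 CPM in WT Prol and 335 to 532 in WT D2. The 5 fibroblast markers summed to 423 to 2199 CPM in WT Prol, above the myoblast markers. Most of this sum was *Col1a1*, at 403 to 2163 CPM, and *Pdgfra* was at 19.9 to 35.4. *Thy1*, *Dcn* and *Lum* were each at most 0.415 CPM in WT Prol. The listed markers of endothelium, blood cells and adipocytes summed to at most 3.22 CPM per list in any library. *Myod1*, which defines myoblasts, was at 0.736 to 4.61 CPM in WT Prol and 78.96 to 99.7 in WT D2. *Myf5*, the highest of the listed myoblast markers in WT Prol, did not rise. It was at 20.5 to 27.4 CPM in WT Prol and 11.6 to 21.4 in WT D2. *Tmpo*, the targeted gene, counts all isoforms together and so does not check LAP2alpha alone. It was at 275 to 315 CPM in WT Prol and 228 to 260.4 in KO Prol, 239 to 302 and 191 to 259 in D0, and 106 to 157 and 94.5 to 157 in D2, and the genotypes overlapped in D0 and D2. With 3 libraries a group, an exact permutation test of 2 groups cannot go below p = 0.1, so that the tests given are those of limma over all genes.

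By day 2 of differentiation, all 48 genes had fallen in WT and in KO myoblasts. In D2 against Prol, 48 of 48 were lower with an adjusted p under 0.05 (limma, Benjamini-Hochberg over the 17672 genes) in each genotype. Of the genes tested, 14.1% were called lower in WT and 15.2% in KO. By a second rule (unadjusted p under 0.05, over 1.5-fold and at least 10 CPM in 1 library), 48 of 48 were also lower in each genotype, against 12.8% and 13.7%. With a log2 fold change over 1.5 in place of 1.5-fold, the criterion given in the methods of the study, 46 were called in WT and 47 in KO, against 3.27% and 3.53% of all genes called lower. *Bub3* failed this in both genotypes and *Cdc25b* in WT. The median log2 fold change of the 48 genes was -2.44 in WT (-2.96 to -0.99) and -2.64 in KO (-3.29 to -1.15), against -0.01 and 0.02 over all genes. For every one of the 48 genes, the 3 D2 libraries lay below the 3 Prol libraries of the same genotype. Among all genes, 20.5% in WT and 22.6% in KO were separated in this way. A D2 library held, on average, 13.9% to 50.5% of the Prol level in WT and 10.7% to 45.3% in KO, depending on the gene. The samples are bulk RNA, in which fewer cells in mitosis and less RNA per cell cannot be told apart. Other marker lists moved with this change. All 8 differentiating-muscle genes were called higher at D2 in both genotypes, with a summed level of 6.84 to 19.2 CPM in WT Prol and 3066 to 6544 in WT D2. Of 5 fibroblast genes 4 were called higher, with a summed level of 1919 to 12463 CPM in WT D2. Among all genes, 16.6% in WT and 17.1% in KO were called higher. Most of the fibroblast sum was *Col1a1*, at 12263, 1797 and 2351 CPM in WT D2 replicates 1, 2 and 3. The part of these marker lists in the result was not tested.

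**Figure D1:**
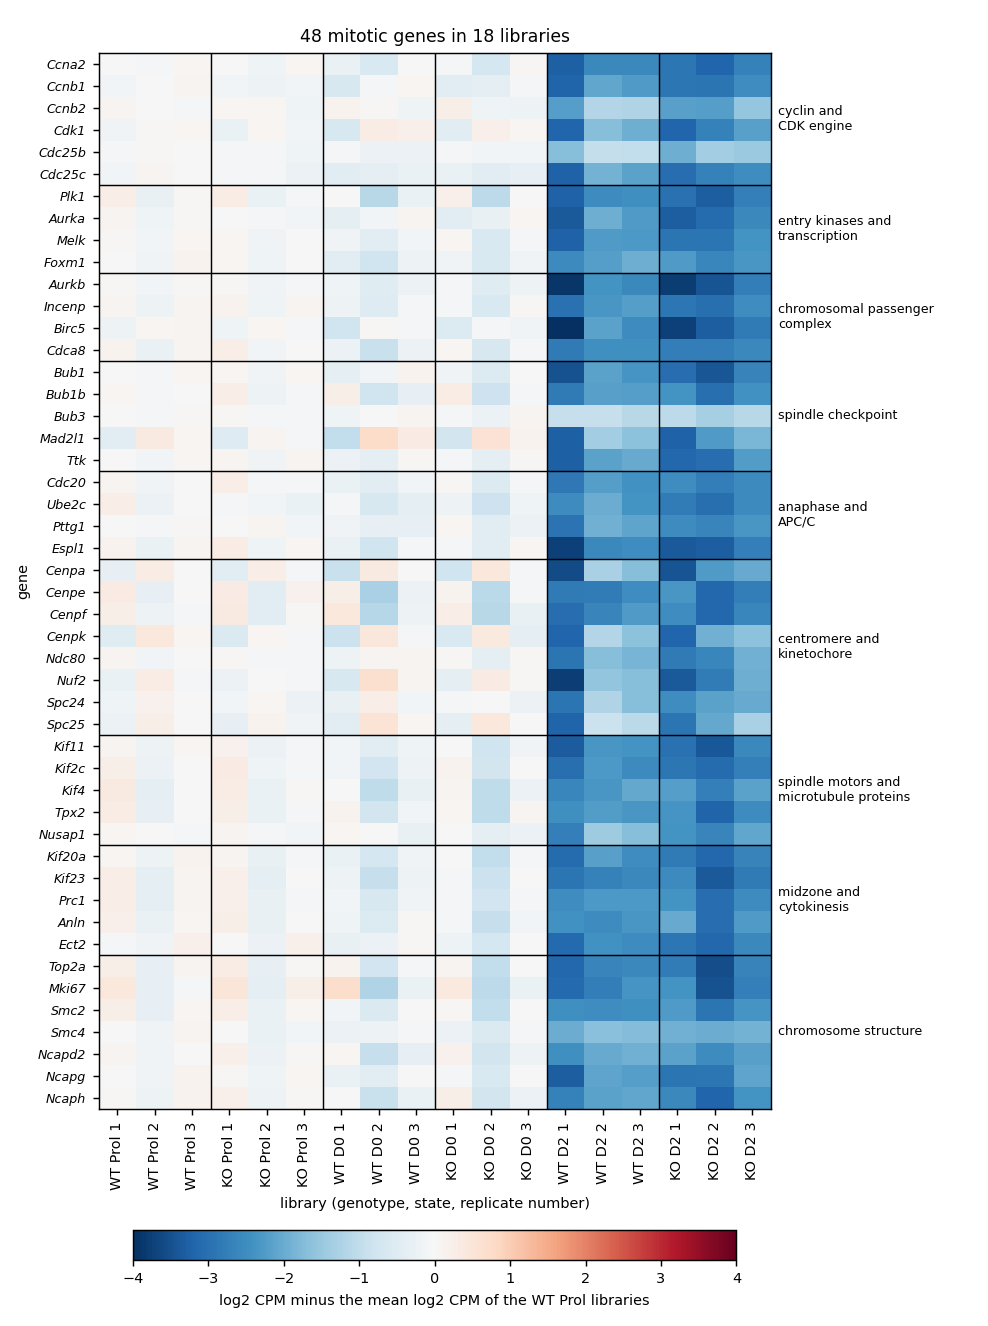
Level of the 48 mitotic genes (rows, grouped by role) in the 18 libraries (columns), as log2 CPM minus the mean log2 CPM of the 3 WT Prol libraries; blue is lower and red is higher. All 48 rows are blue in the 6 D2 libraries, while the Prol and D0 libraries are nearer to 0.

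The cyclins and Cdk1, the engine of mitotic entry, fell in all 6 members, with a median log2 fold change of -2.34 in WT and -2.60 in KO. *Ccnb1* encodes cyclin B1, the partner of Cdk1 at mitotic entry (ENSMUSG00000041431, chromosome 13, 100778650 to 100786570, GRCm38). *Ccnb1* stood at 258, 285 and 300.2 CPM in the 3 WT Prol libraries and at 30.2, 66.8 and 58.5 in WT D2, and at 260.5, 245 and 260.1 in KO Prol and 37.5, 37.2 and 49.9 in KO D2. All D2 libraries lay far below all Prol libraries, and the log2 fold changes were -2.51 in WT and -2.63 in KO cells (standard error 0.26 in each), with adjusted p = 3.5e-06 and 2.5e-06 (limma). *Cdk1*, the kinase itself, lies on chromosome 10 from 69335146 to 69352938. *Cdk1* stood at 200.4, 227 and 232 CPM in the 3 WT Prol libraries and at 24.4, 67.9 and 57.1 in WT D2, and at 184, 231 and 202 in KO Prol and 24.3, 33.6 and 48.8 in KO D2. Replicate 1 was the lowest D2 library in both genotypes, and the log2 fold changes were -2.27 in WT and -2.58 in KO cells (standard error 0.35 in each). *Ccna2*, cyclin A2, which acts in S phase and early mitosis, changed most within this group. *Ccna2* stood at 374, 363 and 405 CPM in the 3 WT Prol libraries and at 39.1, 63.6 and 63.6 in WT D2, and at 385, 335 and 405 in KO Prol and 51.3, 42.6 and 58.4 in KO D2. The 6 D2 libraries lay close together and far below Prol, and the log2 fold changes were -2.81 in WT and -2.89 in KO cells (standard error 0.24 in each). *Cdc25b*, a phosphatase that activates Cdk1, changed least. *Cdc25b* stood at 59.7, 64.1 and 61.6 CPM in the 3 WT Prol libraries and at 19.1, 31.9 and 31.1 in WT D2, and at 59.4, 59.8 and 54.9 in KO Prol and 16.1, 23.7 and 22.2 in KO D2. The D2 libraries thus kept 44.3% of the Prol level in WT and 35.6% in KO, and the log2 fold changes were -1.21 in WT and -1.51 in KO cells (standard error 0.19 in each). *Ccnb2*, the second B-type cyclin, had a log2 fold change of -1.53 in WT, and *Cdc25c* of -2.42.

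The 4 genes of entry kinases and mitotic transcription fell together, with medians of -2.56 in WT and -2.83 in KO. *Plk1*, Polo-like kinase 1, had the largest change of the 4. *Plk1* stood at 119, 80.9 and 102 CPM in the 3 WT Prol libraries and at 10.6, 17.4 and 18.2 in WT D2, and at 122, 83.3 and 94.3 in KO Prol and 12.6, 10.1 and 14.97 in KO D2. The log2 fold changes were -2.73 in WT and -2.99 in KO cells (standard error 0.34 in each), with adjusted p = 1.86e-05 and 8.2e-06 (limma). *Foxm1*, a transcription factor of late cell cycle genes, had the smallest. *Foxm1* stood at 181, 161 and 195 CPM in the 3 WT Prol libraries and at 30.3, 38.5 and 45.7 in WT D2, and at 189, 157 and 181 in KO Prol and 37.4, 28.97 and 35.2 in KO D2. In both genotypes the D2 libraries held about 21.4% (WT) and 19.2% (KO) of the Prol mean, and the log2 fold changes were -2.24 in WT and -2.38 in KO cells (standard error 0.20 in each). *Aurka*, the centrosomal Aurora kinase, and *Melk*, a kinase with high expression in dividing cells, lay between them, at -2.52 and -2.60 in WT.

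The chromosomal passenger complex, which corrects attachments and directs cytokinesis, had the largest median change of the 9 roles, -2.74 in WT and -3.03 in KO. Its kinase *Aurkb* (ENSMUSG00000020897, chromosome 11, 69045647 to 69051664) fell more than any other of the 48 genes on the log2 scale. *Aurkb* stood at 96.5, 86.1 and 95.3 CPM in the 3 WT Prol libraries and at 6.18, 17.5 and 15.5 in WT D2, and at 94.6, 84.4 and 87.8 in KO Prol and 6.59, 8.49 and 13.5 in KO D2. The level left at D2 was 14.1% in WT and 10.7% in KO, and the log2 fold changes were -2.96 in WT and -3.29 in KO cells (standard error 0.32 in each), with adjusted p = 4.81e-06 and 2.11e-06 (limma). *Incenp*, the scaffold of the complex, had the smallest change of its 4 members in WT. *Incenp* stood at 215, 173 and 217 CPM in the 3 WT Prol libraries and at 25.1, 39.5 and 43.3 in WT D2, and at 221, 178 and 214 in KO Prol and 26.7, 24.7 and 35.7 in KO D2. Its log2 fold changes were -2.52 for WT and -2.83 for KO (standard error 0.24). *Birc5* (survivin) was at -2.91 (WT) and -3.23 (KO) on that scale, and *Cdca8* (borealin) at -2.58 and -2.74.

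The 5 spindle checkpoint genes had the widest range of any role. *Bub1*, a kinetochore kinase of the checkpoint, was at one end. *Bub1* stood at 148, 142 and 158 CPM in the 3 WT Prol libraries and at 13.3, 33.9 and 29.1 in WT D2, and at 158, 135 and 158 in KO Prol and 18.1, 13.9 and 23.6 in KO D2. Its log2 fold changes were -2.66 for WT and -3.05 for KO (standard error 0.29). *Bub3*, its binding partner (ENSMUSG00000066979, chromosome 7, 131560222 to 131571895), was at the other end and changed least of all 48 genes. *Bub3* stood at 133, 123 and 136 CPM in the 3 WT Prol libraries and at 68.8, 68.9 and 60.3 in WT D2, and at 135, 127 and 125 in KO Prol and 62.9, 51.8 and 60.1 in KO D2. About 50.5% of the Prol level was left in WT and 45.3% in KO, the log2 fold changes were -0.99 in WT and -1.15 in KO cells (standard error 0.15 in each), and adjusted p was 9.1e-05 and 2.28e-05 (limma). The 95% confidence interval of *Bub3* in WT, -1.30 to -0.68, did not overlap with that of *Bub1*, -3.28 to -2.04. *Ttk*, the kinase Mps1, was at -2.47 in WT, *Bub1b* (BubR1) at -2.40 and *Mad2l1* (Mad2) at -2.10. *Mad2l1* had the largest standard error of all 48 genes, 0.52.

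Genes of anaphase onset and of the APC/C pathway fell in 4 of 4 cases, with medians of -2.42 in WT and -2.65 in KO. *Cdc20*, the APC/C activator that the checkpoint inhibits, had the smallest adjusted p of the 48 genes in both genotypes. *Cdc20* stood at 201, 171 and 191 CPM in the 3 WT Prol libraries and at 25.9, 40.7 and 34.9 in WT D2, and at 224, 181 and 177 in KO Prol and 33.4, 27.7 and 32.3 in KO D2. The 6 D2 libraries lay within 25.9 to 40.7 CPM, the log2 fold changes were -2.50 in WT and -2.64 in KO cells (standard error 0.20 in each), and adjusted p was 3.88e-07 and 4.83e-07 (limma). *Espl1*, separase, which cleaves cohesin, changed most in this role. *Espl1* stood at 175, 133 and 171 CPM in the 3 WT Prol libraries and at 12.04, 26.3 and 28.3 in WT D2, and at 195, 141 and 169 in KO Prol and 15.6, 16.2 and 24.02 in KO D2. The log2 fold change was -2.93 for WT and -3.19 for KO (standard error 0.30). *Ube2c*, the E2 ubiquitin-conjugating enzyme of the APC/C, changed least in WT. *Ube2c* stood at 236, 166 and 195 CPM in the 3 WT Prol libraries and at 34.1, 49.9 and 37.7 in WT D2, and at 192, 181 and 165 in KO Prol and 28.1, 24.3 and 33.4 in KO D2. The log2 fold change was -2.30 for WT and -2.66 for KO (standard error 0.22), and *Pttg1* (securin), the inhibitor of separase, was at -2.33 and -2.52.

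The 8 centromere and kinetochore genes fell in 8 of 8 cases, with medians of -2.18 in WT and -2.47 in KO. *Cenpe*, a kinetochore motor, was the largest change. *Cenpe* stood at 272, 171 and 215 CPM in the 3 WT Prol libraries and at 30.4, 30.9 and 38.4 in WT D2, and at 271, 159.6 and 245 in KO Prol and 43.1, 24.5 and 31.8 in KO D2. The log2 fold change was -2.71 for WT and -2.77 for KO (standard error 0.37). *Spc25*, a subunit of the Ndc80 complex that binds microtubules, was the smallest. *Spc25* stood at 59.1, 81.9 and 68.1 CPM in the 3 WT Prol libraries and at 7.45, 38.3 and 32.8 in WT D2, and at 54.8, 75.8 and 62.1 in KO Prol and 9.18, 16.6 and 28.1 in KO D2. WT D2 replicate 1 was far below the next WT D2 library, and the lowest WT Prol library was above all WT D2 libraries. Here the log2 fold changes were -1.71 in WT and -1.97 in KO cells (standard error 0.50 in each), with adjusted p = 0.0164 and 0.00678 (limma). The call in WT was lost in 4 of the other fits, with adjusted p = 0.0503 with library totals, 0.062 with only the groups compared, 0.0547 without WT Prol replicate 2 and 0.0662 without WT D2 replicate 1 (log2 fold change -0.96). The log2 fold changes of the other subunits of the Ndc80 complex in WT were -2.17 (*Ndc80*), -2.35 (*Nuf2*) and -1.94 (*Spc24*). *Cenpa*, the centromeric histone H3 variant, was at -2.19 in WT, *Cenpf* at -2.64 and *Cenpk* at -1.996.

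Spindle motors and microtubule proteins fell in 5 of 5 cases, with medians of -2.34 in WT and -2.65 in KO. *Kif11* (Eg5), the kinesin that separates the spindle poles, changed most. *Kif11* stood at 195, 155 and 190.0 CPM in the 3 WT Prol libraries and at 18.03, 35.5 and 34.4 in WT D2, and at 202, 152 and 174 in KO Prol and 22.5, 17.2 and 29.9 in KO D2. The log2 fold changes were -2.68 in WT and -2.95 in KO cells (standard error 0.28 in each). *Nusap1*, a microtubule-bundling protein, changed least in WT. *Nusap1* stood at 78.4, 73.1 and 71.9 CPM in the 3 WT Prol libraries and at 11.1, 27.5 and 23.02 in WT D2, and at 80.1, 71.9 and 68.9 in KO Prol and 14.2, 11.8 and 17.4 in KO D2. Its log2 fold changes were -1.96 for WT and -2.36 for KO (standard error 0.26). *Kif2c*, a microtubule depolymerase, *Tpx2*, an activator of Aurora A, and *Kif4*, a chromokinesin, were at -2.62, -2.34 and -2.33 in WT. The 5 genes of the midzone and of cytokinesis had medians of -2.58 and -2.81. *Kif23*, the kinesin of centralspindlin, changed most in WT. *Kif23* stood at 137, 88.97 and 122 CPM in the 3 WT Prol libraries and at 14.98, 17.7 and 18.9 in WT D2, and at 131, 88.5 and 113 in KO Prol and 19.5, 11.2 and 16.2 in KO D2. The log2 fold change was -2.74 for WT and -2.84 for KO (standard error 0.28). *Prc1*, which bundles midzone microtubules, changed least in WT. *Prc1* stood at 213, 136 and 189.8 CPM in the 3 WT Prol libraries and at 31.3, 35.7 and 35.5 in WT D2, and at 205, 144 and 170.3 in KO Prol and 33.3, 21.5 and 30.98 in KO D2. The log2 fold change was -2.37 for WT and -2.61 for KO (standard error 0.25), and *Kif20a*, *Anln* and *Ect2* were at -2.58, -2.42 and -2.68 in WT.

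The 7 genes of chromosome structure had medians of -2.46 in WT and -2.65 in KO. *Top2a*, topoisomerase II alpha, had the highest group mean CPM of the 48 genes in Prol and D0, and *Smc4* in D2. In the D0 libraries of replicate 2, *Smc4* was above *Top2a*, at 538 against 413 CPM in WT and 423 against 359 in KO. *Top2a* stood at 825, 563 and 758 CPM in the 3 WT Prol libraries and at 79.7, 114 and 119 in WT D2, and at 863, 560.2 and 723 in KO Prol and 101, 60.4 and 110.3 in KO D2. The log2 fold changes were -2.78 in WT and -3.01 in KO cells (standard error 0.33 in each), with adjusted p = 1.25e-05 and 6.43e-06 (limma). *Mki67* encodes Ki-67, the proliferation antigen that coats mitotic chromosomes. *Mki67* stood at 386, 227 and 271 CPM in the 3 WT Prol libraries and at 33.2, 41.9 and 55.96 in WT D2, and at 399, 221 and 336 in KO Prol and 54.8, 25.9 and 42.8 in KO D2. Its Prol libraries spread widely, with replicate 1 highest in both genotypes, and the log2 fold changes were -2.75 in WT and -2.98 in KO cells (standard error 0.45 in each), with adjusted p = 0.000223 and 0.000111 (limma). *Smc4*, the condensin core subunit, changed least in this role. *Smc4* stood at 639, 563 and 682 CPM in the 3 WT Prol libraries and at 159.6, 196 and 189 in WT D2, and at 619.9, 518 and 585 in KO Prol and 165, 159 and 169.5 in KO D2. The 6 D2 libraries lay between 159 and 196 CPM, and the log2 fold changes were -1.79 and -1.80 (standard error 0.17). Its partner *Smc2* was at -2.46 in WT, and the condensin I subunits *Ncapd2*, *Ncapg* and *Ncaph* at -2.14, -2.53 and -2.30.

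**Figure D2:**
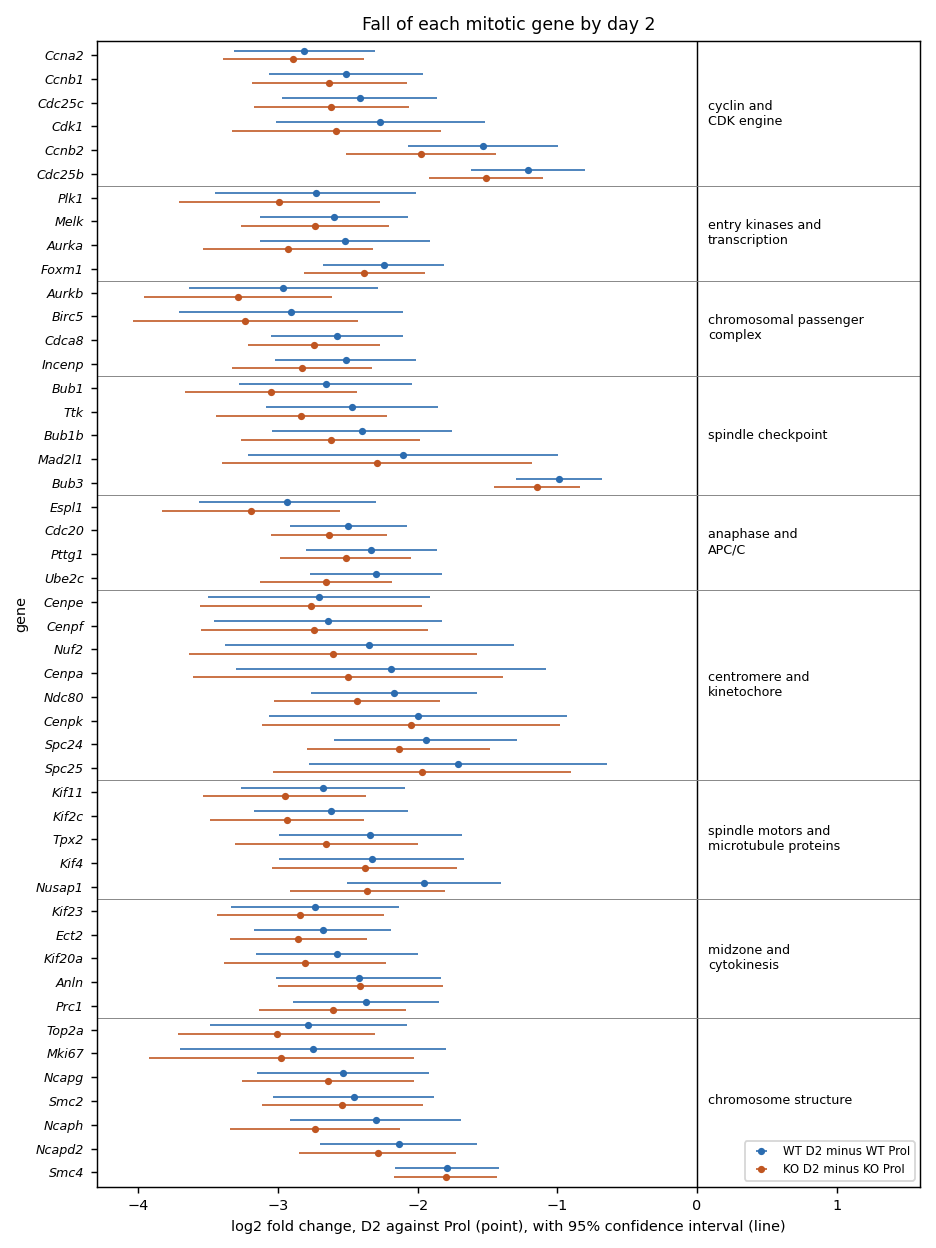
Log2 fold change of each of the 48 genes between D2 and Prol in WT (blue) and KO (orange), with 95% confidence intervals from limma, grouped by role. All intervals lie below 0; *Bub3* and *Cdc25b* are nearest to 0, at -0.99 and -1.21 in WT, and *Aurkb* is farthest, at -2.96.

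Between genes, levels were compared as CPM per kilobase of the annotated main transcript. In WT Prol, *Ube2c* (206 CPM per kilobase), *Birc5* (186) and *Cenpa* (159.6) were the highest and *Cenpf* (11.7), *Kif4* (14.2) and *Cenpk* (15.05) the lowest. At D2, *Smc4* (42.04), *Ube2c* (41.97) and *Cenpa* (41.8) were highest in WT, and these 3 differed by less than the spread between libraries. *Cenpf* remained lowest, at 1.90. *Bub3* stood at 58.9 in WT Prol, and at 29.8 in WT D2, where 4 genes were above it.

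Against D0, the last state before the serum was reduced, D2 showed the same direction for every gene. Again 48 of 48 genes were lower with an adjusted p under 0.05 in WT (11.3% of all genes tested were called lower) and in KO (12.9%). The medians were -2.22 in WT and -2.42 in KO. The log2 fold changes ran from -2.66 (*Aurkb*) to -0.95 (*Bub3*) in WT and from -3.09 (*Aurkb*) to -1.11 (*Bub3*) in KO. The 3 D2 libraries lay below the 3 D0 libraries in all 48 genes and in both genotypes, as in 14.5% of all genes in WT and 16.5% in KO. These comparisons share their D2 libraries with those against Prol. In a fit of only the WT D0 and WT D2 libraries, 44 genes were called by adjusted p. The share of all genes called by adjusted p in that fit was not taken. All 48 were lower with an unadjusted p under 0.05 there, as were 12% of all genes. With all 18 libraries this share was 16.6%.

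Confluence alone was not accompanied by a fall that passed the test. In D0 against Prol, 0 of 48 genes had an adjusted p under 0.05 in WT or in KO (limma; called in either direction were 0.00566% of the genes in WT and 0% in KO). With an unadjusted p under 0.05 there were 1 in WT (0.696% of all genes were lower at this threshold) and 0 in KO (0.328%), and with voom weights likewise 1 and 0. By the 1.5-fold rule there were 0 in WT, against 0.226% of all genes. The medians were -0.24 in WT and -0.22 in KO, against -0.03 over all genes in each, and a log2 fold change below 0 was seen for 43 genes (WT) and 44 (KO), as for 54% and 55.8% of all genes. *Foxm1* was the gene with an unadjusted p under 0.05 in WT. Its WT D0 libraries were at 133, 102 and 155 CPM, all below the WT Prol libraries given above, a log2 fold change of -0.48 (95% confidence interval -0.91 to -0.05, unadjusted p = 0.0319, adjusted p = 1.00, limma). In KO, the smallest p-values were those of *Foxm1*, at 162, 117 and 162 CPM in KO D0 (-0.27, 95% confidence interval -0.71 to 0.16), and *Kif4*, at 74.2, 34.03 and 59.1 CPM (-0.41, -1.07 to 0.25). In both, replicate 2 was the lowest KO D0 library.

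The D0 libraries of replicate 2 had the lowest summed level of the 48 genes in each genotype, but were not lowest for every gene. In WT D0 replicate 2, 33 of 48 genes were below the mean log2 level of their group, and in KO D0 replicate 2, 40 were. *Mad2l1* was highest in replicate 2, at 340 CPM in WT D0 and 301 in KO D0. The summed level of the 48 genes was 7649, 6426 and 7963 CPM in WT D0 and 8085, 5794 and 8144 in KO D0, against 7679 to 8955 in WT Prol and 7461 to 9075 in KO Prol. Without KO D0 replicate 2, the median log2 fold change of the 48 genes in KO D0/Prol was -0.04, and 34 were below 0. Without WT D0 replicate 2 it was -0.14 in WT. Replicate 2 also had the lowest summed level among the Prol libraries of each genotype. In a fit with a replicate block the medians were the same, and an unadjusted p under 0.05 was found for 4 genes (WT) and 1 (KO), with 0 adjusted, while 3.69% of all genes in WT and 1.14% in KO were lower at this threshold.

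KO and WT myoblasts were compared in each state, to see whether LAP2alpha loss changed the mitotic genes. In Prol and in D0, the levels of the 48 genes in KO lay close to those in WT. In Prol, 0 of 48 genes had an adjusted p under 0.05 (0.00566% of all genes were called), 0 had an unadjusted p under 0.05, and the median log2 fold change was -0.02, with a range of -0.20 to 0.11. The smallest p-values were those of *Smc4* (-0.13, 95% confidence interval -0.50 to 0.24) and *Ube2c* (-0.14, -0.61 to 0.33), whose libraries overlapped between the genotypes. In D0, 0 had an adjusted or an unadjusted p under 0.05 (0% and 1.47% of all genes), and the median was 0.00, with a range of -0.13 to 0.23. *Cdca8* (0.23, 95% confidence interval -0.24 to 0.70) and *Foxm1* (0.18, -0.25 to 0.61) had the smallest p-values. Differences within these intervals were not detectable with 3 libraries a group.

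At D2, the mean log2 level in KO was below that in WT for 48 of 48 genes, but no gene passed the test. The median log2 fold change was -0.28 (-0.50 to -0.02), and 52.2% of all genes tested were below 0. With an adjusted p under 0.05 there were 0 genes (0% of all genes tested, limma; 0 also with voom weights), and with an unadjusted p under 0.05 there was 1, *Ube2c* (1.09% of all genes were lower at this threshold). By the 1.5-fold rule there were 0, against 0.464%. The D2 libraries of *Ube2c* were at 34.1, 49.9 and 37.7 CPM in WT and 28.1, 24.3 and 33.4 in KO, and the highest KO value lay below the lowest WT value. The log2 fold change was -0.50 (95% confidence interval -0.97 to -0.03, unadjusted p = 0.0401, adjusted p = 1.00, limma). It was the only member of the 48 whose D2 groups did not overlap, and 3.81% of all genes were separated in this direction. For the other 47 genes the WT and KO libraries overlapped at D2.

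These values depended on single libraries, in both directions, and most on WT D2 replicate 1. In that library the 48 genes summed to 1210 CPM, against 1998 and 1897 in the other WT D2 libraries and 1410, 1206 and 1660 in KO D2. It also had the highest summed level of 8 differentiating-muscle genes, 6544 CPM, against 3485 and 3066 in WT D2 and 1809 to 2336 in KO D2. The scaling (TMM) factors of the D2 libraries were 0.909 (WT) and 0.931 (KO) in replicate 1 and 1.11 to 1.18 in the others, and with library totals in their place the median KO/WT difference was -0.29. The part of this library's muscle level in the result was not tested. Without this library, the median KO/WT difference at D2 was -0.52, and 22 of 48 genes had an unadjusted p under 0.05, all lower in KO, where 2.26% of all genes were lower at this threshold. None of the 22 had an adjusted p under 0.05 (limma). Without WT D2 replicate 2 the median was -0.10, with 36 genes below 0, and without WT D2 replicate 3 it was -0.12, with 39 below 0. Without KO D2 replicates 1, 2 and 3 in turn it was -0.20, -0.12 and -0.39.

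**Figure D3:**
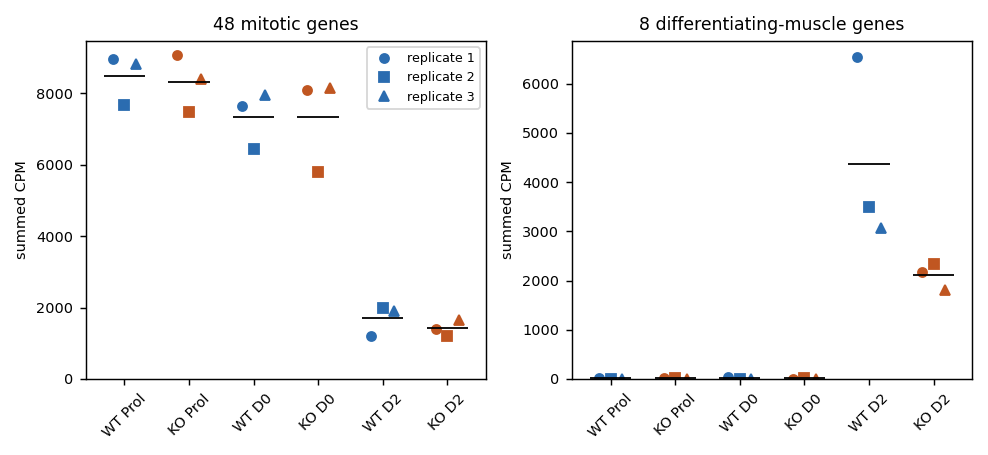
Summed CPM of the 48 mitotic genes (left) and of 8 differentiating-muscle genes (right) in each library, by group; symbols mark the replicate number, blue is WT, orange is KO, and the black line is the group mean. WT D2 replicate 1 is the lowest WT D2 library on the left, at 1210 CPM, and the highest on the right, at 6544 CPM.

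Over all genes, the deviations of same-numbered WT and KO libraries from their group means correlated at D2 (r = 0.276 to 0.645), and the KO/WT ratio was also taken within each number. The 48 genes did not follow this throughout. Their median deviation was -0.49 in WT and -0.01 in KO for replicate 1, 0.32 and -0.22 for replicate 2, and 0.26 and 0.27 for replicate 3. In replicate 1, KO was lower for 5 of 48 genes, with a median log2 ratio of 0.27. In replicate 2 it was lower for 48 of 48, with a median of -0.79, and in replicate 3 for 44 of 48, with a median of -0.22. The share of all genes that were lower in KO was 59.1%, 48.2% and 48.9% in these pairs. Of the 48 genes, 4 had the same sign in all 3 pairs. The share of all genes with the same sign in all 3 pairs was not taken, so this count has no background. The 8 muscle genes were lower in KO in all 3 pairs, with median log2 ratios of -1.58, -0.58 and -0.77. In the fit without a replicate block, 0 of these 8 had an adjusted p under 0.05 in KO/WT at D2 (0% of all genes, limma). In the fit with a replicate block, the median of the 48 genes stayed at -0.28 and 2 genes were lower with an unadjusted p under 0.05, against 2.76% of all genes, with 0 adjusted.

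**Figure D4:**
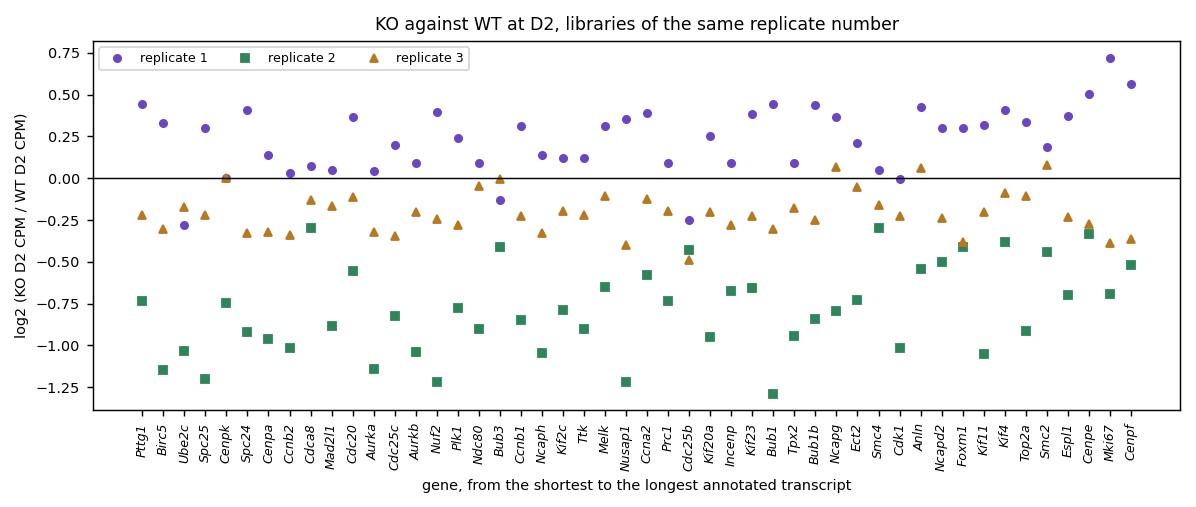
Log2 ratio of KO D2 to WT D2 for each of the 48 genes, taken between the libraries of the same replicate number, with genes ordered from the shortest to the longest annotated transcript. The ratios have medians of 0.27 in replicate 1, -0.79 in replicate 2 and -0.22 in replicate 3.

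Whether the fall from Prol to D2 differed between the genotypes was tested directly. In the test of KO/WT at D2 against KO/WT in Prol, 0 of 48 genes had an adjusted p under 0.05 and 0 an unadjusted p under 0.05 (0% and 0.945% of all genes tested), and the median was -0.22. By the 1.5-fold rule there were 0 (0.232%). The smallest p-values were those of *Ccnb2* and *Ube2c*. *Ccnb2* was at 8.79, 18.05 and 17.6 CPM in WT D2 and 8.98, 8.93 and 13.9 in KO D2, with a difference of -0.44 (95% confidence interval -1.20 to 0.32, adjusted p = 1.00, limma), and that of *Ube2c* was -0.36 (-1.02 to 0.31). Between D2 and D0, the median difference was -0.30, again with 0 genes adjusted and 0 unadjusted (0% and 1.78% of all genes), and 0 by the 1.5-fold rule (0.323%). *Cdc25b* (-0.46, 95% confidence interval -1.03 to 0.12) and *Ube2c* (-0.45, -1.11 to 0.22) had the smallest p-values. Without WT D2 replicate 1, 11 genes had an unadjusted p under 0.05 in the difference between D2 and Prol, where 0.871% of all genes were lower at this threshold, and the median was -0.50. Without WT D2 replicate 2, WT D2 replicate 3 or KO D2 replicate 2 there were 0, with medians of -0.09, -0.10 and -0.11. In the difference between D2 and D0 there were 12 without WT D2 replicate 1 (1.06% of all genes were lower), with a median of -0.56, and 0 without WT D2 replicate 2 or 3, with medians of -0.09 and -0.16.

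Within the groups, the deviation of a library from its group mean followed transcript length among the 48 genes. This is a description across genes, which are not independent, and the 3 deviations of a group sum to 0. In replicate 1 libraries, longer transcripts stood higher relative to shorter ones in all 6 groups, with Spearman's rho of 0.47 to 0.62 (n = 48 genes), and in replicate 2 libraries lower, with rho of -0.78 to -0.59. Replicate 3 had no common sign, -0.37 to 0.52. Over the 17606 tested genes with an annotated length the signs were the same, 0.20 to 0.35 in replicate 1 and -0.43 to -0.23 in replicate 2. In WT D2, the 12 genes with the shortest transcripts, *Pttg1*, *Birc5* and *Ube2c* foremost, deviated by medians of -0.90, 0.65 and 0.29 on the log2 scale in replicates 1, 2 and 3. The 12 with the longest, among them *Cenpf*, *Mki67* and *Cenpe*, deviated by -0.34, 0.02 and 0.29. The KO/WT log2 fold change at D2 had a rho of 0.48 with length among the 48 genes and 0.17 over all genes, and for KO D0/Prol the values were -0.62 and -0.18. The part of transcript length in these comparisons was not tested.

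Promoters of the 48 genes were read because the genes moved together. RefSeq (GRCm38.p6) gave a window from 250 bases before to 50 bases after the transcription start for 39 of the 48 genes. It was searched on both strands for TTTGAA or TTCGAA (the cell cycle genes homology region, CHR, bound by the MuvB complex), CCAAT (the NF-Y box) and TTCGCGC or TTGGCGC (E2F). The minus-strand TTGGCGC and CCAAT can share bases, as they do in *Ccnb1* and *Ect2*. CHR letters were in 29 of 39 windows (74.4%), CCAAT in 29 (74.4%) and both in 26 (66.7%), whereas of the 27025 genes with a window 19.4%, 37.9% and 7.70% held them. Among the 11517 tested genes with a window the shares were 14.0%, 39.1% and 6.01%. E2F letters were in 6 of 39 windows (15.4%), in 3.98% of all and in 6.93% of those of tested genes. For 25 of 32 DNA replication genes with a window, the CHR share was 24%, the CCAAT share 60% and the E2F share 32%, and for 84 of the 102 other mitotic genes they were 44.0%, 56.0% and 14.3%. No window was read for *Kif20a*, *Aurkb*, *Incenp*, *Cdc25c*, *Tpx2*, *Ccna2*, *Foxm1*, *Smc4* and *Spc24*.

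The windows below belong to 4 genes of mitotic entry and anaphase, and to *Bub3* and *Cdc25b*, the 2 genes that changed least, and capitals mark the letters searched for. ATTGG and TTCAAA in capitals are CCAAT and TTTGAA on the minus strand, and the *Bub3* window is 1 of 2 starts listed.
Ccnb2 promoter, chr9:70421505-70421804, strand minus: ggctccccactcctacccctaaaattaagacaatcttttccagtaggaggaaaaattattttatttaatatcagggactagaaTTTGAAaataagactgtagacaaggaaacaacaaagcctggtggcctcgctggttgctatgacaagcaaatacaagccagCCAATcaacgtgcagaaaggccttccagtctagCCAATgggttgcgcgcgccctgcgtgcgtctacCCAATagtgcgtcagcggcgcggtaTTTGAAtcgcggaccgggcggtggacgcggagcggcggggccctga
Cdc20 promoter, chr4:118437294-118437593, strand minus: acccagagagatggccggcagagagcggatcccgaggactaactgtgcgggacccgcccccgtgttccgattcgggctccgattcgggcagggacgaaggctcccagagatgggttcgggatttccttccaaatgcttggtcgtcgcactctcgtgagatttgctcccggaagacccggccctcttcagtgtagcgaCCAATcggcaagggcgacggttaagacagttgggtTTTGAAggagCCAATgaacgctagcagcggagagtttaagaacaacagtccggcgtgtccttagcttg
Cdk1 promoter, chr10:69352863-69353162, strand minus: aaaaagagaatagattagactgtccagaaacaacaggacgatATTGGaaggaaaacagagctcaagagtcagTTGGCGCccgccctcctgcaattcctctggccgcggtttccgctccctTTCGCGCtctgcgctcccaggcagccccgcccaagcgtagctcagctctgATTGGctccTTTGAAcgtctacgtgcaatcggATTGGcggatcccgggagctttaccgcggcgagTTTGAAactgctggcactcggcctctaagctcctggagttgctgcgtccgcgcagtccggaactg
Plk1 promoter, chr7:122159185-122159484, strand plus: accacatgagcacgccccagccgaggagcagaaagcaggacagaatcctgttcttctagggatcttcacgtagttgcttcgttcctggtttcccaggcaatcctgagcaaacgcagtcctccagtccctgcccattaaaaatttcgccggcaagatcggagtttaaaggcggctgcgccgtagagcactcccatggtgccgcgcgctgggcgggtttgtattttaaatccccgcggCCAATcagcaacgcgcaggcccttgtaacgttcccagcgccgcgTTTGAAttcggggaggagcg
Bub3 promoter, chr7:131560120-131560419, strand plus: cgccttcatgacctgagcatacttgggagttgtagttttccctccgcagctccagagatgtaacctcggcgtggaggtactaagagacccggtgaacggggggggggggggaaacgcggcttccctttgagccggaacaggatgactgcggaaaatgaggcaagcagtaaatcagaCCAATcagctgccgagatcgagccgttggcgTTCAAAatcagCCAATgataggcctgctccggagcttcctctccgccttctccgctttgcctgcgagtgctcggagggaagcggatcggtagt
Cdc25b promoter, chr2:131186698-131186997, strand plus: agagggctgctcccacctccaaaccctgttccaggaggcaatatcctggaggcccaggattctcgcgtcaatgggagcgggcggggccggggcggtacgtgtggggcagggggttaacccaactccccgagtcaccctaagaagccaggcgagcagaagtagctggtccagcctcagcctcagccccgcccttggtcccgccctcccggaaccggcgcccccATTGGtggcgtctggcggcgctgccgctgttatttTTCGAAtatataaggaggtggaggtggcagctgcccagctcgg
Positions are counted from the start base as 0. *Cdk1* held CHR letters at -71 and -15, CCAAT on the minus strand at -208, -80 and -48, and E2F letters at -178 and -130. *Ccnb2* held 3 CCAAT on the plus strand at -87, -54 and -21 and CHR letters at -167 and 4. *Plk1* held CCAAT at -14 and CHR letters at 30, and *Cdc20* held CCAAT at -53 and -8 and CHR letters at -18. *Bub3* also held CCAAT, at -74 and -32, and CHR letters, on the minus strand at -43. *Cdc25b* held CCAAT on the minus strand at -28 and the CHR letters TTCGAA at 7. The 29 genes with CHR letters had a median log2 fold change of -2.47 in WT D2/Prol (-2.93 to -0.99) and the 10 without had -2.34 (-2.91 to -1.96). A match of letters is a description and not a site.

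Other genes of the mitotic pathway, 102 in all and not among the 48, were described by list. At D2 against Prol, 75 of 102 were lower and 1 higher with an adjusted p under 0.05 in WT, and 78 and 1 in KO. Of all genes, 14.1% in WT and 15.2% in KO were called lower, and 16.6% and 17.1% higher. The medians of the 102 genes were -1.37 and -1.55. Motors and spindle proteins fell in 19 of 20 genes in each genotype (median -2.22 in WT). *Cep55*, of the midbody, fell with a log2 fold change of -2.80 in WT and *Kif18b* with -2.73, whereas *Numa1*, of the spindle poles, was at -0.56 (adjusted p = 0.184, limma). Other centromere and kinetochore genes fell in 25 of 27 (median -1.60). *Kntc1* and *Knl1*, of the outer kinetochore, fell, at -2.56 and -2.44, and *Cenpb* and *Cenpt* did not pass, at 0.20 and -0.38. All 3 condensin II genes fell, *Ncapg2* at -2.30.

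Among regulators of mitotic entry and exit, 10 of 12 genes fell in WT and 11 in KO (14.1% and 15.2% of all genes were called lower). *Ccnf* was at -2.60 in WT, *Nek2* at -2.43 and *Wee1*, the kinase that inhibits Cdk1, at -1.61, whereas *Ensa*, an inhibitor of the phosphatase PP2A, was at 0.18 (adjusted p = 0.443, limma). Cohesin and its regulators fell in 7 of 12 genes in each genotype. *Sgo1* (shugoshin), *Cdca5* (sororin) and *Esco2*, which act on cohesin in dividing cells, fell, at -2.37, -2.27 and -2.12 in WT, and the loader *Nipbl* was at -0.19 (adjusted p = 0.796, limma). APC/C genes fell in 5 of 16 in each genotype and rose in 1, with a median of -0.20 in WT. Of all genes, 16.6% in WT and 17.1% in KO were called higher. *Fbxo5* (Emi1), the inhibitor of the APC/C, fell, at -2.89 in WT, and so did *Fzr1* (Cdh1), its activator in G1, at -0.95. The subunit *Cdc16* rose by 0.60, while *Anapc2* and *Anapc4* were at 0.06 and -0.08. Of the MuvB, B-Myb and DREAM genes, 6 of 12 fell in WT and 8 in KO. *Mybl2* (B-Myb) fell, at -4.06 in WT, from a mean of 122 to 7.79 CPM, and *Lin9* at -1.62, whereas *Rbl2* (p130) was at 0.58 (adjusted p = 0.189, limma).

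DNA replication genes, which act before mitosis, were taken for comparison. Of 32 genes, 29 were lower in WT and 30 in KO with an adjusted p under 0.05 (14.1% and 15.2% of all genes were called lower). Their medians were -2.01 and -2.18, beside -2.44 and -2.64 for the 48 mitotic genes. *Mcm10*, *Rrm2* and *Cdc6* fell, at -3.11, -3.06 and -3.02 in WT, and *Pcna* at -1.54. *Gins4*, *Rfc3* and *Rfc4* did not pass in WT, at -0.49, -0.54 and -1.07. The difference between the lists was not tested. In WT D2 replicate 1 both lists were lowest among the WT D2 libraries, with median levels of -3.03 (mitotic) and -2.38 (replication) against the WT Prol mean on the log2 scale, and in the other WT D2 libraries they were at -2.16 and -2.26 (mitotic) and -1.94 and -1.96 (replication).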

How the data were processed

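RNA-seq libraries of 18 samples of p53 knockout mouse myoblasts were analysed, 3 in each of 6 groups taken from the labels. Per the study's methods, strand-specific poly(A) libraries were sequenced as 50-base single reads, trimmed with cutadapt, aligned to the GRCm38 transcriptome with NextGenMap and quantified with RSEM. The deposited values are expected counts with 0.5 added, divided by the library total times a TMM factor and given as CPM by the authors. Expected counts were recovered from these values, and 17672 of 19153 genes with more than 5 in all 3 libraries of at least 1 group were tested. In each library 34.9% to 47.3% of recovered counts under 20 were whole (tolerance 0.001), so no count test was run. log2 of the deposited CPM was fitted with limma 3.58.1 (R 4.3.3) with a variance trend, 1 factor of 6 groups and Benjamini-Hochberg adjustment, and 95% confidence intervals are from this fit. A second rule was an unadjusted p under 0.05, a change over 1.5-fold and at least 10 CPM in 1 library. The methods of the study state a log2 fold change over 1.5 in place of 1.5-fold, which was run as an alternative. The scripts were tested on simulated data. Sequencing lanes were not in the labels and were not modelled.

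The 48 genes and the other lists were chosen with earlier results of these data known. Genes given with full values were 8 set anchors, the largest and smallest WT D2/Prol change of each role, and the genes of smallest p in comparisons without a call. Genes of the other lists are list extremes or were picked after their values were seen. Transcript lengths are those of the APPRIS principal transcript (GENCODE M21 basic, GRCm38). Same-numbered libraries of compared groups had deviations that correlated over genes with r of 0.0100 to 0.645. All 3 pairs exceeded 0.1 in every comparison except WT D2/Prol and WT D2/D0, where replicate 3 had 0.0393 and 0.0100. The labels give the replicate numbers but do not say that same-numbered libraries belong together. That was taken from these correlations. Alternatives were voom weights, other scalings, no filter, a pseudocount of 1, only the groups compared, a replicate block, other call rules and leaving out each library.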

Additional observations from a re-analysis of the deposited data

How the results depend on the processing

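Across the alternatives, 524 of 531 counts and medians stayed within the limits used, which were 1.5 times for a count and, for a median, the largest SD between the library medians of a compared group. With 3 libraries a group, leaving out 1 library moves a group mean by less than this SD, so a median could hardly leave its limit. The tally therefore says little about medians in those fits. In KO/WT D2, 1 gene had an unadjusted p under 0.05 with all libraries. Without WT D2 replicate 1 there were 22, and without WT D2 replicate 2 or 3 there were 0. With all libraries 1.09% of all genes were lower at this threshold, and without WT D2 replicate 1 2.26%. Of 808 values of single genes, 804 kept their direction and call and 0 were reversed. The medians of KO/WT in Prol and D0, near 0, changed sign without some libraries, with ranges of -0.08 to 0.06 and -0.08 to 0.18, and that of KO/WT D2 ran from -0.52 to -0.10. In D2/Prol and D2/D0, KO had 48 calls with an adjusted p under 0.05 under every alternative run, and WT had 47 to 48 and 44 to 48. The shares of all genes called by adjusted p were not taken for the alternatives. The 4 single values that lost their call were those of *Spc25* in WT D2/Prol, at -1.55 with library totals, -1.71 with only the groups compared, -1.59 without WT Prol replicate 2 and -0.96 without WT D2 replicate 1. By the 1.5-fold rule, leaving out 1 library gave 0 to 1 genes in WT D0/Prol (1 without WT D0 replicate 1 or 3, with 0.905% and 0.611% of all genes) and 0 to 18 in KO/WT D2 (18 without WT D2 replicate 1, with 1.8% of all genes, and 3 without KO D2 replicate 3, with 0.826%). It gave 0 to 9 in the KO effect between D2 and Prol (9 without WT D2 replicate 1, with 0.566%) and 0 to 11 between D2 and D0 (11 without WT D2 replicate 1, with 0.804%, and 1 without KO D0 replicate 2, with 0.651%). Each of these fits had 1 library less, and the cause of the changes was not tested. In the fit with a replicate block, 48 genes were called in each of the 4 comparisons of D2 and 0 in the others, and it changed no call by adjusted p. With 3 libraries a group, small differences of KO and WT could not be detected. A difference smaller than the distance from the estimate to an end of its confidence interval did not reach an unadjusted p under 0.05.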

Other observations

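Of 6 genes of quiescence and cell cycle exit, 4 were higher at D2 than in Prol in both genotypes with an adjusted p under 0.05 (limma; 16.6% of all genes were called higher in WT and 17.1% in KO). *Cdkn1a*, the inhibitor p21, rose most, by 5.36 on the log2 scale in WT (adjusted p = 1.28e-07) and 4.43 in KO (adjusted p = 7.48e-07), in cells that all lack p53. It stood at 662, 327 and 278 CPM in WT D2 and at 270.5, 223 and 161 in KO D2, and WT D2 replicate 1, the WT D2 library with the lowest summed mitotic level, was the highest. *Cdkn1c* (p57) was low in every library, 0.0937 to 0.962 CPM in WT Prol and 1.74 to 5.37 in WT D2, and rose by 3.21 in WT and 2.45 in KO, *Rb1* rose by 2.11 and 1.83, and *Cdkn1b* (p27) by 0.77 and 0.83. *Rbl2* and *Ccnd3* did not pass, at 0.58 and 0.59 in WT.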
